A study of Homo sapiens with 8 samples.

Results

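Interferon-stimulated genes are the genes that cells switch on when interferon reaches its receptors, and 42 of them, a fixed list of gene symbols from the classical antiviral families, were followed here through RNA-seq of nickel-exposed human lung cells. All 42 symbols were found among the 25411 genes listed for each library. By role it holds 4 IFIT genes, 4 OAS genes, 2 MX and 2 GBP large GTPases, 3 RNA sensors, 4 membrane restriction factors, 7 genes of the ISG15 and ubiquitin system, 5 enzymes that act on RNA or nucleotides or restrict viruses in the cytoplasm, 4 transcription factors and 7 further genes.

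In airway epithelium, viral RNA is sensed in the cytoplasm by RIG-I (encoded by DDX58) and MDA5 (IFIH1), which leads to secretion of type I and type III interferons. These bind receptors on the same and neighbouring cells and activate JAK1 and TYK2, which phosphorylate STAT proteins. With IRF9 these form ISGF3, which binds the interferon-stimulated response element (ISRE) in the promoters of antiviral genes, while STAT dimers bind the gamma-activated sequence (GAS).

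BEAS-2B is an immortalized human bronchial epithelial line. Its cells were left untreated (UT), or exposed to 100 µM NiCl2 over 6 weeks and harvested at the end of exposure (Ni-E). Ni-W cells had the same 6-week exposure, were plated as single cells without nickel, and 1 randomly picked colony was expanded and kept in nickel-free medium for more than 6 months. HCl3 libraries carry the same treatment text as Ni-W, but for them the time out of nickel and the relation to the Ni-W colony were not given in the sources used here. No genotype was altered in any group, and each group had 2 libraries. The study's methods describe the RNA samples as biological replicates, and the labels call the second library of each group a duplicate. How the replicate cultures were kept apart, or whether those of Ni-W came from the same colony, was not given in the sources used here, so P values measure the spread between these libraries. Ni-W stands for a single colony, so that a feature of the colony and a lasting effect of nickel cannot be told apart. The 2 HCl3 libraries carry different experiment numbers from each other and from Ni-E, and no number is given for UT or Ni-W, so that experiment and group cannot be told apart.

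Each library held between 26383920 and 45692298 reads assigned to genes, and the 42 members together took from 0.093% (Ni-E replicate 1) to 0.159% (both HCl3 libraries) of these. The epithelial keratins KRT7, KRT8 and KRT18 were high in every library (at least 144 RPKM), whereas the basal markers KRT5, KRT14 and TP63 were at or near 0 and CDH1 reached only 0.11 RPKM. KRT19 was at most 0.02 RPKM in UT and Ni-E but ranged from 0.53 to 0.78 RPKM in Ni-W and HCl3. EPCAM ranged from 0.95 to 1.79 RPKM and SFN from 22.3 to 49.5 RPKM. Of these 10 epithelial markers, 4 reached at least 1 RPKM in every library. Of 8 leukocyte markers, 7 stayed under 0.1 RPKM in every library. The remaining gene, CD14, ranged from 1.06 to 1.96 RPKM in UT and Ni-E and from 2.84 to 4.15 RPKM in Ni-W and HCl3, and the summed level of the list (1.10 to 4.30 RPKM) moved with it; its part in the results was not tested. The pan-leukocyte marker PTPRC reached at most 0.04 RPKM, while CD3E and MS4A1 were at 0. The 4 endothelial markers summed to at most 0.14 RPKM. In bulk libraries a change in a gene's level in every cell and a change in the share of cells that express it cannot be told apart.

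The promoters of the members are shown first, because the list is defined by a shared mode of control. RefSeq windows of 300 bases, from 250 upstream to 50 downstream of a gene start in GRCh38.p14, were matched for 33 members (43 windows). The ISRE core GAAANNGAA, searched on both strands, was present in a window of 24 of these 33 members (72.7%), compared with 8.11% of all 35116 windows and 9.86% of all 27305 genes. More than 1 copy in a window, overlapping matches counted, was found in 16 members. Of all windows 0.7% held more than 1 copy, which is a share of windows and not of genes. The GAS core TTCNNNGAA was present for 10 of 33 members (30.3%), against 7.66% of all windows and 9.38% of all genes. The same stretch of bases can match both cores where they overlap. A match describes letters and is not a measured binding site. The 200 bases upstream of the start are printed for 6 members with the largest changes against UT among those called in any comparison, averaging at least 50 normalized counts and holding the motif upstream, on the strand of the gene, and capitals mark the ISRE core on either strand.
MX1, chr21:41431850-41432049, plus strand: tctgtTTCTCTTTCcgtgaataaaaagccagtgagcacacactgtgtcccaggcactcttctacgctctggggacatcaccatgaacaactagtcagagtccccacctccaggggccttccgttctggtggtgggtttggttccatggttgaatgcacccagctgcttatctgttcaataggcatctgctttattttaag
IFI44, chr1:78649589-78649788, plus strand: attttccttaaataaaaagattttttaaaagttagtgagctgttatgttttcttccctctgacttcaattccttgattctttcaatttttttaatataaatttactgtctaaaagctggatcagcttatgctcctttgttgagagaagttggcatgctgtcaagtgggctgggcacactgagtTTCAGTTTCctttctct
BST2, chr19:17405631-17405830, minus strand: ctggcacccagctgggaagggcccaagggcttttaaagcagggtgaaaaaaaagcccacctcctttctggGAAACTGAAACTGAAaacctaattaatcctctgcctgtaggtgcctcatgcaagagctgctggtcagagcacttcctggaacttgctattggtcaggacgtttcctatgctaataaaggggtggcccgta
ISG20, chr15:88638816-88639015, plus strand: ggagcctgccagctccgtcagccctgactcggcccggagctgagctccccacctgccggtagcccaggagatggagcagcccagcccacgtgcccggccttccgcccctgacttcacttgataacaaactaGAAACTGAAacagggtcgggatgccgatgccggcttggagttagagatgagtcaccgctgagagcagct
IFITM1, chr11:313840-314039, plus strand: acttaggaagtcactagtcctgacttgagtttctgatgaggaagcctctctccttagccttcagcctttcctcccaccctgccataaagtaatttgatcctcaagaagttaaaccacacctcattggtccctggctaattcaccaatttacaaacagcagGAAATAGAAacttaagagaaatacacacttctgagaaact
EPSTI1, chr13:42992242-42992441, minus strand: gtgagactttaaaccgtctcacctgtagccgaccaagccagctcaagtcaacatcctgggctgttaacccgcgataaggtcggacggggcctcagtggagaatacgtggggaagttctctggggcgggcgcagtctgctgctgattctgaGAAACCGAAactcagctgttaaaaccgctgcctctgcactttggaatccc
In BST2 the capitals hold 2 overlapping copies, which start 130 and 124 bases before the gene start. The copy shown starts 69 bases before the start of ISG20, 50 before that of EPSTI1, 40 before that of IFITM1 and 17 before that of IFI44. IFITM1 holds a further match, starting 6 bases before the gene start and spanning it, which is not in capitals. The MX1 window shown belongs to 1 of several RefSeq starts of that gene, and the copy in this window starts 195 bases upstream. Another MX1 window held 2 matches, at positions 12 and 18 downstream of its own start. It is not shown because neither match lies upstream, and a further MX1 window held no match.

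**Figure D1:**
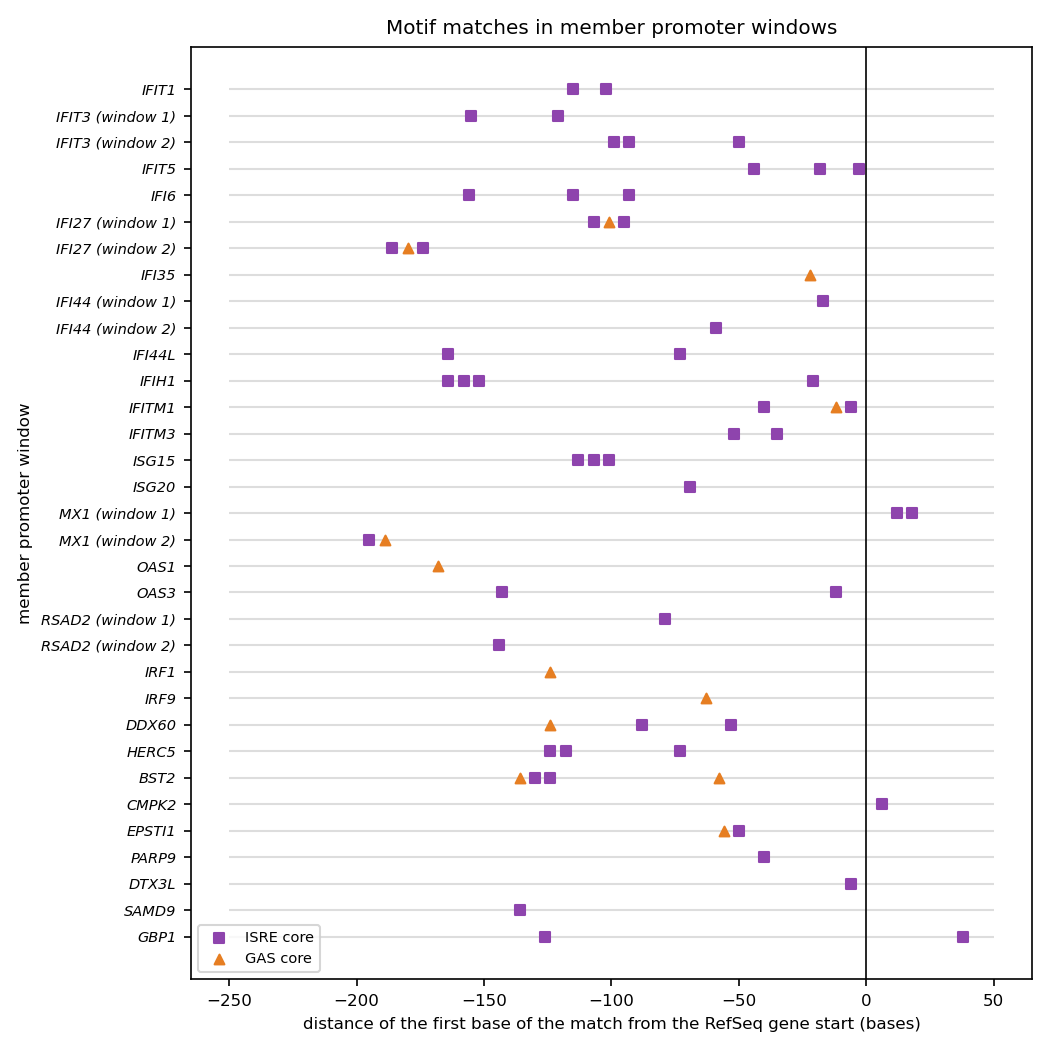
Positions of ISRE core (squares) and GAS core (triangles) matches in the RefSeq promoter windows of members that held at least 1 match, drawn as the distance in bases of the first matching base from the gene start; grey lines span each window. ISRE matches were found for 24 of 33 matched members and GAS matches for 10.

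Most members were higher in HCl3 than in untreated cells, a smaller number were higher in Ni-W, and few had changed at the end of exposure. Among members averaging at least 50 normalized counts, the largest increases in HCl3 against UT were those of OASL, MX2, MX1, OAS1 and IFI44. A gene was called when the DESeq2 adjusted P value, corrected over all genes tested, was below 0.05 and the fold change at least 1.5, and log2 fold changes are given ± SE from the fit. In HCl3 against UT, 26 of the 42 members were called higher, where 11.4% of all 15421 genes tested were called higher. None was called lower by DESeq2 or by edgeR, against 3.84% of all genes, and 1 member was lower at an unadjusted P value under 0.05. In Ni-W against UT, 16 members were called higher and 3 lower, beside 11.1% and 4.95% of all genes. Without Ni-W replicate 1 the count of higher members was 7, and without Ni-W replicate 2 it was 9; the 3 lower members became 0 and 1. In Ni-E against UT, only 3 members were called higher and 4 lower, beside 3.84% and 2.1% of all genes; the higher count was 1 without UT replicate 2, 1 without Ni-E replicate 1 and 0 without Ni-E replicate 2, and the lower count was 2 without UT replicate 2 or without Ni-E replicate 1.

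The median log2 fold change of the members against UT was 0.12 for Ni-E, 0.41 for Ni-W and 0.78 for HCl3, whereas the median over all genes tested was -0.002, 0.006 and 0.007. These 3 comparisons share the UT libraries. By normalized count, both libraries lay above both UT libraries in 14 members for Ni-E (30.6% of all genes tested), in 28 for Ni-W (36.3%) and in 38 for HCl3 (36.9%), and below both in 7 members (28.5%), 7 (33.5%) and 1 (34.2%). By mean level, 31 members were highest in HCl3, 7 in Ni-W, 4 in Ni-E and 0 in UT. Both HCl3 libraries lay above the other 6 libraries in 27 of 42 members, compared with 11.5% of all genes tested.

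**Figure D2:**
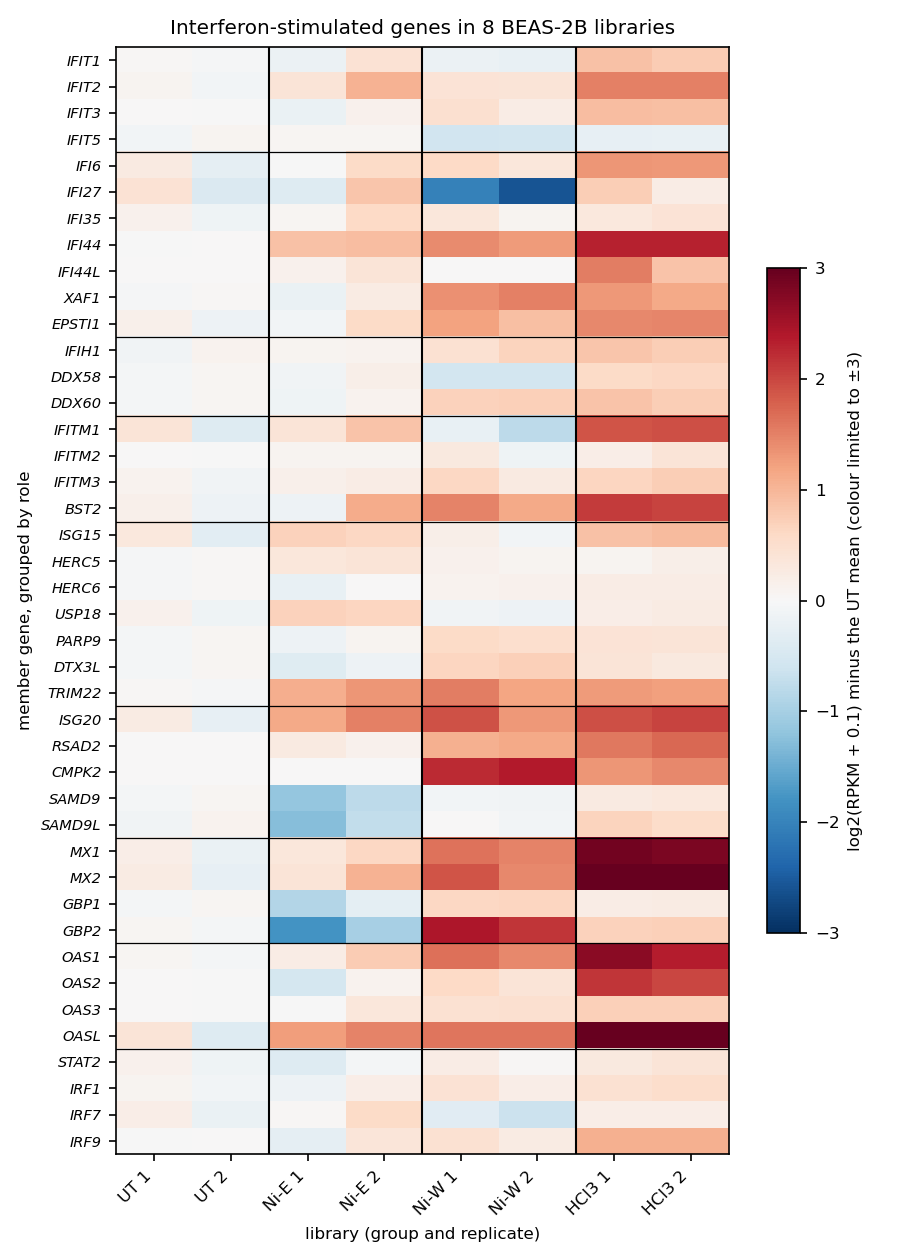
Level of each of the 42 members (rows, grouped by role) in each library (columns), as log2(RPKM + 0.1) minus the mean of the 2 UT libraries; red is higher, blue lower, and colours are limited to 3 in either direction. The HCl3 columns are red for most rows, Ni-W is mixed, and Ni-E replicate 2 is redder than replicate 1.

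**Figure D3:**
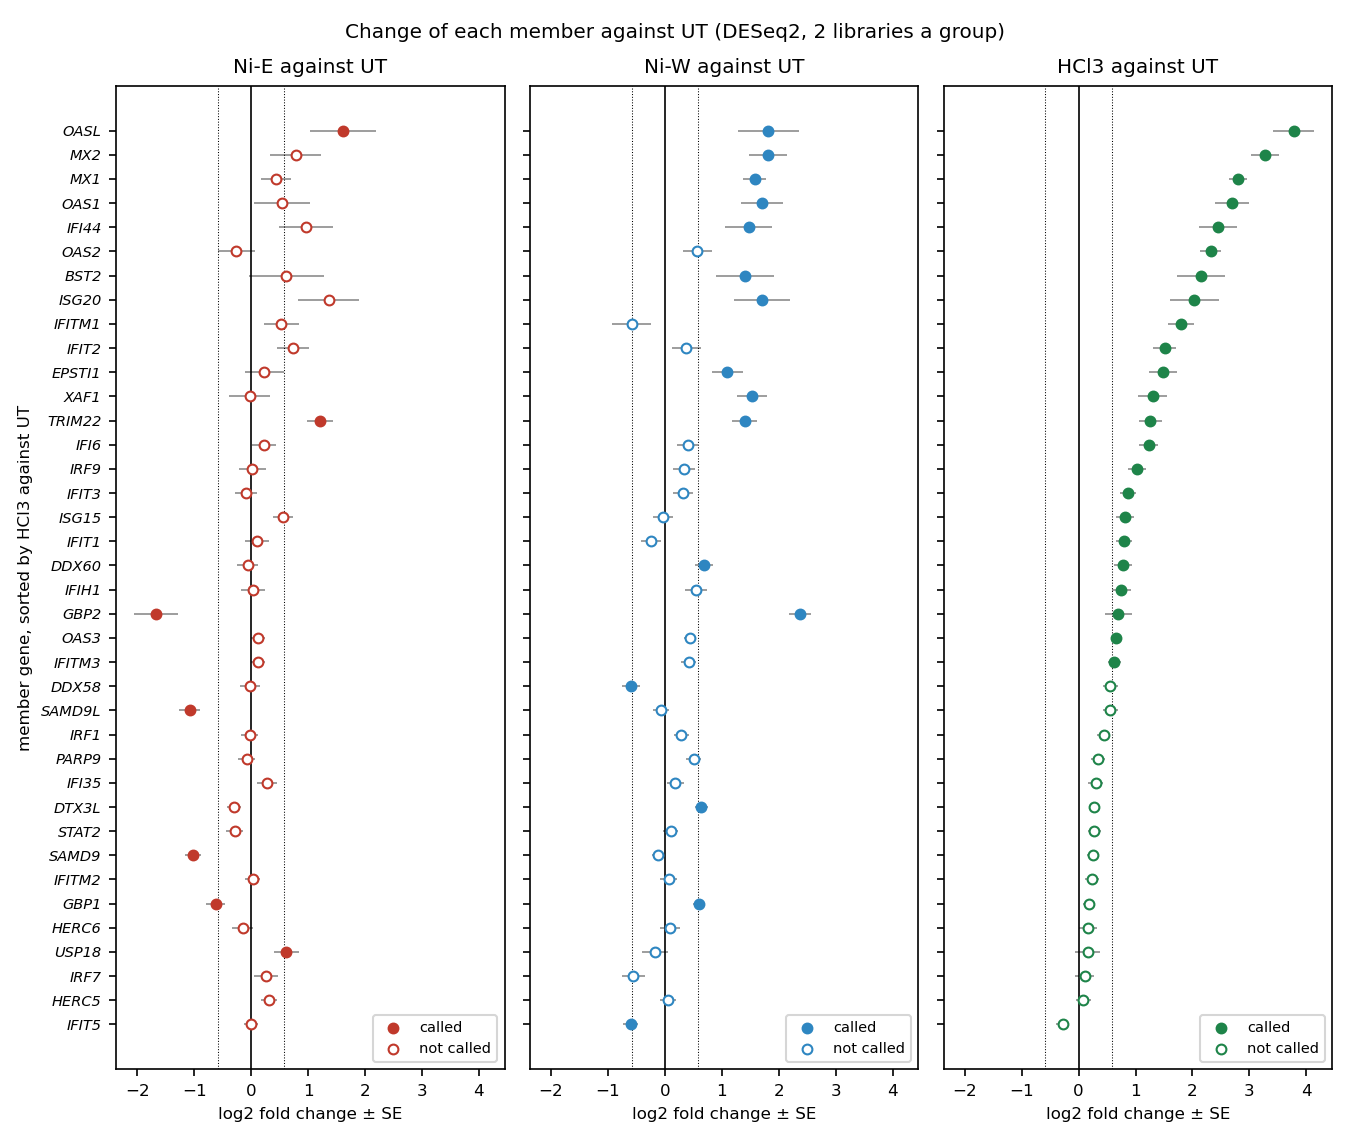
DESeq2 log2 fold change of 38 members against UT with SE, in 3 panels for Ni-E, Ni-W and HCl3; filled points were called, open points were not, and dotted lines mark a 1.5-fold change. The 4 members with a mean normalized count under 50 are not drawn. IFIT5, at -0.28, is the only one of the 42 members below 0 in HCl3.

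The OAS family, whose enzymes make oligoadenylates that activate RNase L when they meet double-stranded RNA, was called higher in HCl3 in all 4 members and in Ni-W in 2 of 4. Of all genes tested, 11.4% and 11.1% were called higher in HCl3 and Ni-W. OAS1 (chr12:113344739-113357712 in hg19, the build of the files) was at 0.75 and 0.69 RPKM (UT), 0.85 and 1.28 (Ni-E), 2.48 and 2.13 (Ni-W) and 5.29 and 4.11 (HCl3). Both Ni-W and both HCl3 libraries were above every UT and Ni-E library. The log2 fold change against UT was 1.70 ± 0.37 (adjusted P value 3.72e-05) in Ni-W and 2.70 ± 0.30 (adjusted P value 3.86e-17) in HCl3. OASL, an OAS-like protein without the synthetase activity, was at 0.34 and 0.16 RPKM (UT), 0.71 and 0.85 (Ni-E), 0.93 and 0.93 (Ni-W) and 3.65 and 3.43 (HCl3). It was lowest in UT, similar in Ni-E and Ni-W, and highest in HCl3. Against UT the log2 fold change of OASL was 1.61 ± 0.58 (adjusted P value 0.0485) in Ni-E, 1.82 ± 0.53 (adjusted P value 0.00332) in Ni-W and 3.78 ± 0.36 (adjusted P value 5.29e-24) in HCl3.

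OAS2, next to OAS1 and OAS3 on chromosome 12, was at 1.45 and 1.43 RPKM (UT), 0.96 and 1.55 (Ni-E), 2.24 and 1.92 (Ni-W) and 6.68 and 6.05 (HCl3). HCl3 stood apart, and the Ni-W libraries were above UT by less than the threshold, at log2 fold changes of 2.32 ± 0.18 (adjusted P value 2.63e-36) in HCl3 and 0.57 ± 0.25 (adjusted P value 0.0679) in Ni-W. OAS3 was the most abundant of the family on the RPKM scale, at 18.8 and 18.4 RPKM (UT), 18.6 and 23.6 (Ni-E), 25.6 and 26.2 (Ni-W) and 30.8 and 30.4 (HCl3). It rose least, by a log2 fold change of 0.66 ± 0.09 (adjusted P value 8.82e-12) in HCl3, and in Ni-W it was 0.44 ± 0.10 (adjusted P value 9.6e-05), below 1.5-fold. In Ni-E, values of OAS1, OAS2 and OAS3 were 0.54, -0.26 and 0.12 on the log2 scale, and none was called by DESeq2 or edgeR or had an unadjusted P value under 0.05. OAS1 was not called in Ni-W without Ni-W replicate 1 (adjusted P value 0.0965). OASL was not called in Ni-W without UT replicate 2, Ni-W replicate 1 or Ni-W replicate 2 (adjusted P values 0.0999, 0.237 and 0.144), nor in Ni-E when any 1 of the 4 libraries was left out (adjusted P values 0.0972 to 0.608).

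**Figure D4:**
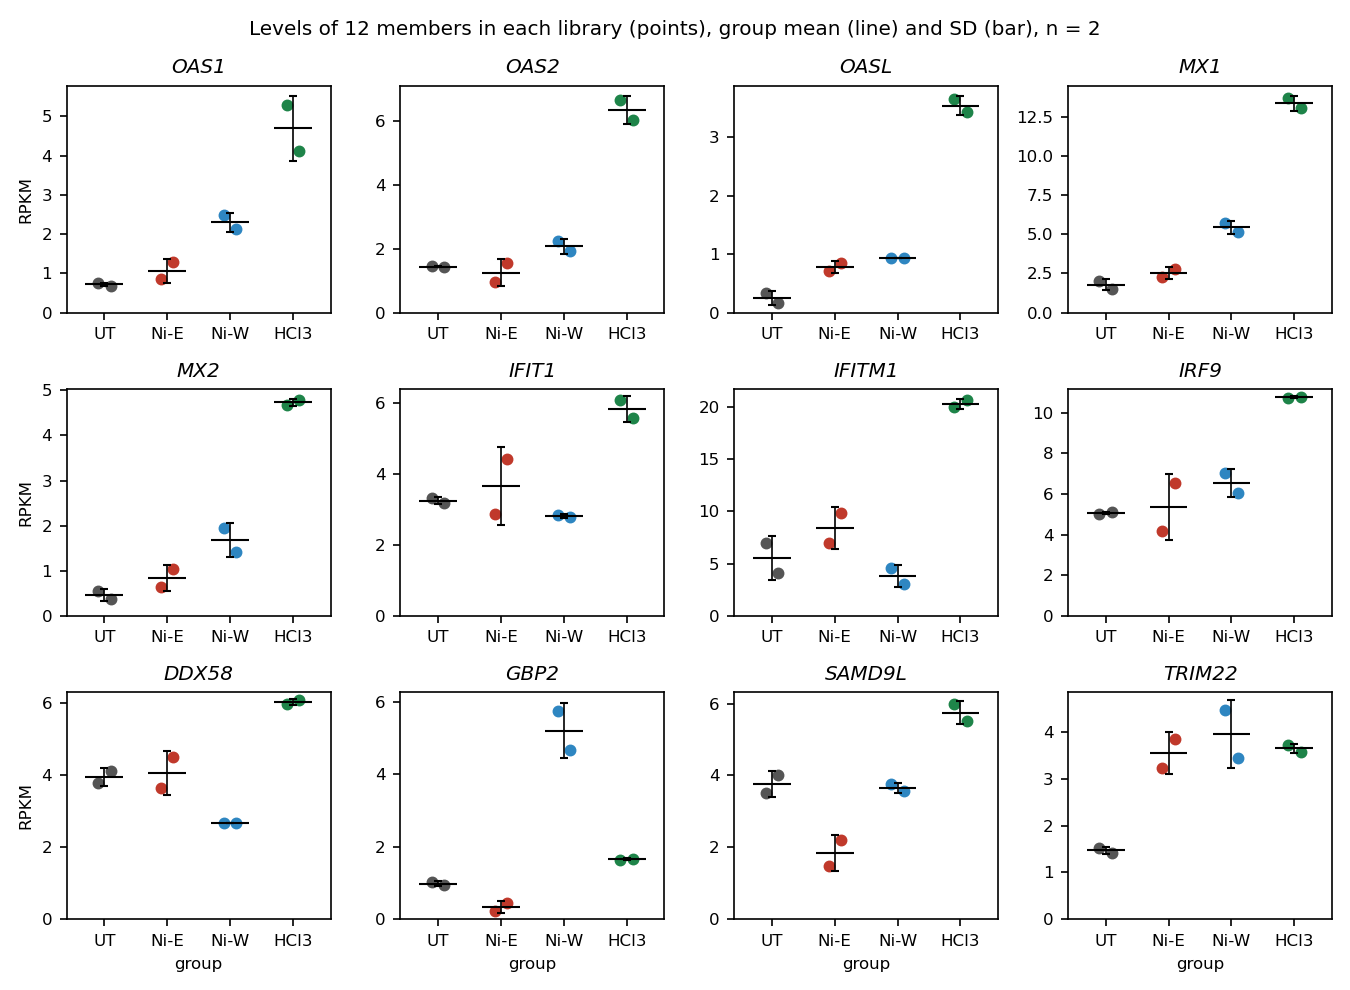
RPKM of 12 members in each library (points), with the group mean (line) and SD (bar, n = 2 libraries), each panel on its own linear axis from 0. The OAS and MX genes step up from UT to Ni-W to HCl3, GBP2 peaks in Ni-W, SAMD9L is lowest in Ni-E and TRIM22 is raised in all 3 nickel groups.

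The MX proteins are dynamin-like GTPases that block virus replication, MX1 against influenza virus and MX2 against HIV. Their genes lie side by side on chromosome 21 (MX1 at chr21:42803977-42831141 and MX2 at chr21:42733950-42780869). MX1 was at 2.03 and 1.54 RPKM (UT), 2.26 and 2.79 (Ni-E), 5.72 and 5.16 (Ni-W) and 13.7 and 13.0 (HCl3). Each Ni-W library exceeded all UT and Ni-E libraries, and each HCl3 library exceeded both Ni-W libraries. The log2 fold change of MX1 against UT was 1.58 ± 0.20 (adjusted P value 9.9e-14) in Ni-W and 2.80 ± 0.16 (adjusted P value 7.56e-66) in HCl3, and MX1 was called in both whichever library was left out. MX2 was at 0.56 and 0.37 RPKM (UT), 0.63 and 1.04 (Ni-E), 1.95 and 1.42 (Ni-W) and 4.68 and 4.78 (HCl3). Its order of groups was the same, the log2 fold changes being 1.81 ± 0.34 (adjusted P value 1.66e-06) in Ni-W and 3.27 ± 0.25 (adjusted P value 4.22e-38) in HCl3. In Ni-E the values were 0.44 ± 0.26 (log2 scale, adjusted P value 0.308) for MX1 and 0.78 ± 0.44 (adjusted P value 0.267) for MX2. MX2 was not called in Ni-W without Ni-W replicate 1 (adjusted P value 0.0621).

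The guanylate-binding proteins GBP1 and GBP2, GTPases best known as targets of interferon gamma, behaved differently. GBP2 (chr1:89571816-89591842) was at 1.03 and 0.93 RPKM (UT), 0.21 and 0.44 (Ni-E), 5.74 and 4.66 (Ni-W) and 1.64 and 1.67 (HCl3). It was lowest in Ni-E and highest in Ni-W, and the 4 groups did not overlap. Against UT, GBP2 fell in Ni-E, with a log2 fold change of -1.67 ± 0.39 (adjusted P value 0.000583), and rose in Ni-W by 2.37 ± 0.19 (adjusted P value 3.75e-32) and in HCl3 by 0.70 ± 0.23 (adjusted P value 0.0105). It was the only member called lower in HCl3 than in Ni-W, the log2 fold change being -1.67 ± 0.16 (adjusted P value 2.34e-24). GBP1 was at 15.8 and 17.1 RPKM (UT), 8.91 and 13.4 (Ni-E), 25.2 and 25.9 (Ni-W) and 19.2 and 19.5 (HCl3). The same order of groups was seen at a smaller scale, with -0.62 ± 0.17 (log2 scale, adjusted P value 0.00508) in Ni-E, 0.60 ± 0.11 (adjusted P value 2.16e-06) in Ni-W and 0.18 ± 0.11 (adjusted P value 0.202) in HCl3. About 9.9% of 50-base windows of the GBP1 transcript also occur in other genes, GBP3 and GBP2 among them. As the authors removed multi-hits in alignment, reads fitting more than 1 of these genes may be missing from its counts.

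Several GBP calls depended on 1 library. GBP2 in Ni-E was not called without UT replicate 1, UT replicate 2 or Ni-E replicate 1 (adjusted P values 0.118, 0.0807 and 0.198). In HCl3, GBP2 was not called when any 1 of the 4 libraries was left out (adjusted P values 0.0572 to 0.324). GBP1 in Ni-E was not called without UT replicate 2 or Ni-E replicate 1 (adjusted P values 0.18 and 0.46), and in Ni-W its fold change fell just below 1.5 without UT replicate 1 or Ni-W replicate 2 (log2 fold changes 0.54 and 0.58). GBP1 in Ni-E was -0.51 (log2 scale, adjusted P value 0.0242) after correction for GC content and transcript length, below 1.5-fold.

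The IFIT proteins bind foreign RNA, IFIT1 recognising caps that lack methylation of the first nucleotide. Their genes form a cluster on chromosome 10 (IFIT1 at chr10:91152303-91166244). Of the 4 genes, 3 were called higher in HCl3, and none in Ni-W or Ni-E, by DESeq2 or edgeR (at an unadjusted P value under 0.05, none was higher in Ni-W and 1 was higher in Ni-E). Of all genes tested, 11.4%, 11.1% and 3.84% were called higher in HCl3, Ni-W and Ni-E. With 4 genes, the lack of a higher call in Ni-W and Ni-E is near that share. IFIT1 was at 3.32 and 3.18 RPKM (UT), 2.88 and 4.43 (Ni-E), 2.85 and 2.78 (Ni-W) and 6.10 and 5.57 (HCl3). HCl3 was above every other library, and Ni-W was below both UT libraries. The log2 fold change of IFIT1 was 0.79 ± 0.14 (adjusted P value 3.94e-07) in HCl3 and -0.24 ± 0.17 (adjusted P value 0.296) in Ni-W. IFIT2 was at 1.30 and 1.16 RPKM (UT), 1.64 and 2.62 (Ni-E), 1.67 and 1.63 (Ni-W) and 3.66 and 3.67 (HCl3). It rose in HCl3 by 1.51 ± 0.20 (log2 scale, adjusted P value 7.37e-13), and in Ni-E, where replicate 2 was above replicate 1, its value of 0.73 ± 0.28 (adjusted P value 0.0646) did not pass. IFIT3 was at 5.19 and 5.10 RPKM (UT), 4.47 and 5.66 (Ni-E), 7.17 and 6.00 (Ni-W) and 9.90 and 9.70 (HCl3). It rose in HCl3 by 0.87 ± 0.14 (log2 scale, adjusted P value 1.62e-08), and in Ni-W it was 0.32 ± 0.17 (adjusted P value 0.14).

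IFIT5, which binds triphosphorylated RNA ends, went the other way. It was at 9.11 and 10.1 RPKM (UT), 10.1 and 9.96 (Ni-E), 6.45 and 6.54 (Ni-W) and 8.12 and 8.28 (HCl3). Both Ni-W libraries were below all other libraries, and the log2 fold change against UT was -0.60 ± 0.13 (adjusted P value 4.9e-05) in Ni-W and -0.28 ± 0.12 (adjusted P value 0.0572) in HCl3. The call in Ni-W was close to the threshold of 1.5-fold. The value was -0.58 (log2 scale, adjusted P value 9.42e-07) with the GC and length correction, and -0.44 (adjusted P value 0.00548) after the median of neighbouring genes within 5 Mb, -0.16, was removed. It also lay under 1.5-fold without UT replicate 2 or Ni-W replicate 1 (log2 fold changes -0.53 and -0.58).

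Among the RNA sensors, IFIH1 (MDA5), which detects long double-stranded RNA, was at 2.26 and 2.64 RPKM (UT), 2.57 and 2.62 (Ni-E), 3.40 and 3.97 (Ni-W) and 4.40 and 4.15 (HCl3). It rose in HCl3 by 0.75 ± 0.17 (log2 scale, adjusted P value 0.000109), while in Ni-W the value of 0.55 ± 0.19 (adjusted P value 0.0146) was under 1.5-fold. The median of expressed genes within 5 Mb of IFIH1 was 0.49 in HCl3 and 0.55 in Ni-W on the same log2 scale. With that median removed, IFIH1 in HCl3 was 0.26 (log2 scale, adjusted P value 0.29). IFIH1 in HCl3 was also not called without HCl3 replicate 1 or HCl3 replicate 2 (adjusted P values 0.1 and 0.0582).

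DDX58 (RIG-I, chr9:32455300-32526322), which detects short RNA with triphosphate ends, was at 3.76 and 4.11 RPKM (UT), 3.62 and 4.48 (Ni-E), 2.66 and 2.67 (Ni-W) and 5.95 and 6.08 (HCl3). Ni-W was the lowest group and HCl3 the highest, and the log2 fold change against UT was -0.60 ± 0.16 (adjusted P value 0.00108) in Ni-W and 0.56 ± 0.13 (adjusted P value 0.000235) in HCl3, the latter below 1.5-fold. Expressed genes within 5 Mb of DDX58 had a median, on the log2 scale, of -0.61 in Ni-W, and with it removed DDX58 was 0.01 (adjusted P value 0.976). DDX58 was also not called in Ni-W without UT replicate 2, Ni-W replicate 1 or Ni-W replicate 2 (adjusted P values 0.0555, 0.122 and 0.0843). Of 50-base windows of DDX58, 89.1% also occur in transcripts of gene models from another annotation. No other gene listed for the libraries overlaps DDX58, and whether its counts are affected was not tested. DDX60, a helicase linked to RIG-I signalling, was at 1.87 and 2.06 RPKM (UT), 1.79 and 2.13 (Ni-E), 3.22 and 3.29 (Ni-W) and 3.63 and 3.36 (HCl3). Both washed-out groups were above UT and Ni-E without overlap, at log2 fold changes of 0.69 ± 0.16 (adjusted P value 0.000131) in Ni-W and 0.78 ± 0.15 (adjusted P value 3.99e-06) in HCl3. DDX60 was not called in Ni-W without Ni-W replicate 1 or Ni-W replicate 2 (adjusted P values 0.0547 and 0.0608).

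The membrane restriction factors were called higher in HCl3 in 3 of 4 cases, where 11.4% of all genes tested were called higher. IFITM1, which blocks fusion of viral and cell membranes at the cell surface, was at 7.02 and 4.07 RPKM (UT), 7.01 and 9.81 (Ni-E), 4.58 and 3.04 (Ni-W) and 20.0 and 20.6 (HCl3). HCl3 exceeded the other groups, and Ni-W was at the level of the lower UT library. The log2 fold change of IFITM1 was 1.80 ± 0.23 (adjusted P value 1.98e-13) in HCl3 and -0.58 ± 0.34 (adjusted P value 0.205) in Ni-W against UT, and 2.38 ± 0.20 (adjusted P value 4.37e-29) in HCl3 against Ni-W. IFITM3, its endosomal relative and the most abundant member on the RPKM scale, was at 159 and 136 RPKM (UT), 163 and 172 (Ni-E), 226 and 179 (Ni-W) and 230 and 246 (HCl3). It rose in HCl3 by 0.63 ± 0.11 (log2 scale, adjusted P value 5.73e-08), and in Ni-W, at 0.42 ± 0.13 (adjusted P value 0.00709), the change was under 1.5-fold. IFITM2 ranged from 46.2 to 65.5 RPKM over the 8 libraries with no call. The IFITM genes are close copies, and 38.9%, 12.0% and 17.9% of 50-base windows of IFITM1, IFITM2 and IFITM3 occur in another gene. The study's methods state that multi-hits were removed in alignment. Reads that fit more than 1 copy may therefore be missing from their counts and levels.

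BST2 (tetherin), which holds budding virus particles on the cell surface, was at 0.67 and 0.53 RPKM (UT), 0.53 and 1.41 (Ni-E), 1.85 and 1.44 (Ni-W) and 2.86 and 2.76 (HCl3). It was higher in both washed-out groups than in UT, by a log2 fold change of 1.41 ± 0.51 (adjusted P value 0.0209) in Ni-W and 2.15 ± 0.42 (adjusted P value 4.07e-06) in HCl3. The Ni-E libraries differed from each other, and the value there was 0.62 ± 0.66 (log2 scale, adjusted P value 0.642). BST2 in Ni-W was not called when any 1 of the 4 libraries was left out (adjusted P values 0.107 to 0.462), whereas in HCl3 it was called without each. IFITM3 in HCl3 fell below 1.5-fold without UT replicate 2 or HCl3 replicate 2 (log2 fold changes 0.52 and 0.58).

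ISG15 is a ubiquitin-like protein joined to other proteins by enzymes such as HERC5 and removed by USP18, which also restrains the interferon receptor. ISG15 was at 62.6 and 39.8 RPKM (UT), 80.4 and 77.0 (Ni-E), 56.2 and 47.0 (Ni-W) and 92.6 and 95.8 (HCl3). The UT libraries differed from each other, Ni-E and HCl3 were above both, and both Ni-W libraries lay between the 2 UT libraries. The log2 fold change against UT was 0.82 ± 0.16 (adjusted P value 6.2e-06) in HCl3, 0.56 ± 0.18 (adjusted P value 0.0212) in Ni-E (under 1.5-fold) and -0.03 ± 0.18 (adjusted P value 0.941) in Ni-W. ISG15 in HCl3 was not called without HCl3 replicate 1 or HCl3 replicate 2 (adjusted P values 0.361 and 0.443), or without UT replicate 2 (log2 fold change 0.53). USP18 was at 3.23 and 2.70 RPKM (UT), 4.82 and 4.70 (Ni-E), 2.75 and 2.65 (Ni-W) and 3.38 and 3.54 (HCl3). It was highest in Ni-E, with a log2 fold change of 0.62 ± 0.22 (adjusted P value 0.041) against UT and -0.17 ± 0.23 (adjusted P value 0.637) in Ni-W and 0.16 ± 0.22 (adjusted P value 0.628) in HCl3. The call in Ni-E was lost when any 1 of the 4 libraries was left out (adjusted P values 0.154 to 0.558), and 19.9% of 50-base windows of USP18 occur in other genes, USP41 among them. HERC5 ranged from 6.28 to 8.42 RPKM and HERC6 from 2.57 to 3.58 RPKM, and neither was called in any of the 6 comparisons.

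TRIM22, a ubiquitin ligase that restricts several viruses, was called higher in all 3 nickel groups. It was at 1.52 and 1.42 RPKM (UT), 3.23 and 3.86 (Ni-E), 4.47 and 3.45 (Ni-W) and 3.72 and 3.58 (HCl3). All 6 nickel libraries were at least 2 times as high as the higher UT library, and the log2 fold change was 1.21 ± 0.23 (adjusted P value 5.11e-06) in Ni-E, 1.40 ± 0.22 (adjusted P value 3.09e-09) in Ni-W and 1.26 ± 0.20 (adjusted P value 8.44e-09) in HCl3. TRIM22 was not called between nickel groups, at a log2 fold change of -0.14 ± 0.17 (adjusted P value 0.666) for HCl3 against Ni-W, 0.18 ± 0.19 (adjusted P value 0.506) for Ni-W against Ni-E and 0.03 ± 0.17 (adjusted P value 0.907) for HCl3 against Ni-E. The call in Ni-E was lost without Ni-E replicate 2 (adjusted P value 0.051). DTX3L, a ubiquitin ligase that works with PARP9, was at 12.6 and 13.5 RPKM (UT), 10.2 and 11.8 (Ni-E), 20.2 and 21.2 (Ni-W) and 17.0 and 15.8 (HCl3). It was highest in Ni-W, with 0.64 ± 0.11 (log2 scale, adjusted P value 7.63e-08) against UT, while HCl3 was at 0.28 ± 0.10 (adjusted P value 0.0216). PARP9, which shares a promoter region with DTX3L head to head, was at 7.33 and 7.94 RPKM (UT), 6.87 and 8.11 (Ni-E), 11.5 and 10.8 (Ni-W) and 10.2 and 10.0 (HCl3), with 0.51 ± 0.13 (log2 scale, adjusted P value 0.000796) in Ni-W and no call. Genes within 5 Mb had a median, on the log2 scale, of 0.32 in Ni-W, and DTX3L was 0.31 (adjusted P value 0.0206) with it removed, below 1.5-fold.

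SAMD9 and SAMD9L, neighbouring genes on chromosome 7 (chr7:92728826-92747336 and chr7:92759368-92777680) whose products restrict poxviruses and curb protein synthesis, fell at the end of exposure. SAMD9 was at 12.0 and 13.3 RPKM (UT), 5.63 and 7.33 (Ni-E), 12.0 and 11.8 (Ni-W) and 15.3 and 15.7 (HCl3). Both Ni-E libraries were below all others, Ni-W was at about the UT level and HCl3 was above it. Its log2 fold change against UT was -1.02 ± 0.14 (adjusted P value 1.15e-10) in Ni-E, -0.12 ± 0.11 (adjusted P value 0.443) in Ni-W and 0.25 ± 0.10 (adjusted P value 0.0465) in HCl3. SAMD9L was at 3.50 and 4.01 RPKM (UT), 1.49 and 2.20 (Ni-E), 3.76 and 3.56 (Ni-W) and 5.98 and 5.52 (HCl3). The pattern was the same, with -1.08 ± 0.19 (log2 scale, adjusted P value 9.68e-07) in Ni-E, -0.07 ± 0.14 (adjusted P value 0.769) in Ni-W and 0.56 ± 0.13 (adjusted P value 9.06e-05) in HCl3, the last below 1.5-fold. Neither decrease in Ni-E was lost when a library was left out. Against Ni-E, SAMD9 was higher by 0.88 ± 0.12 (log2 scale, adjusted P value 2.58e-11) in Ni-W and 1.26 ± 0.11 (adjusted P value 6.77e-27) in HCl3, and SAMD9L by 1.00 ± 0.17 (adjusted P value 1.04e-07) and 1.63 ± 0.16 (adjusted P value 8.78e-24).

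ISG20, an exonuclease that degrades single-stranded RNA, was at 0.79 and 0.53 RPKM (UT), 1.54 and 2.02 (Ni-E), 2.72 and 1.74 (Ni-W) and 2.74 and 2.94 (HCl3). All 6 nickel libraries were above both UT libraries, and the log2 fold change was 1.36 ± 0.53 (adjusted P value 0.0731) in Ni-E, 1.71 ± 0.49 (adjusted P value 0.00257) in Ni-W and 2.03 ± 0.43 (adjusted P value 2.52e-05) in HCl3. In Ni-W it was not called without UT replicate 2, Ni-W replicate 1 or Ni-W replicate 2 (adjusted P values 0.0683, 0.371 and 0.054), and in HCl3 without HCl3 replicate 2 (adjusted P value 0.0746). Genes within 5 Mb of ISG20 had a median, on the log2 scale, of 0.52 in Ni-W and 0.40 in HCl3, and with it removed ISG20 in Ni-W was 1.19 (adjusted P value 0.0681).

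RSAD2 (viperin, which makes a chain-terminating nucleotide) and CMPK2 (a mitochondrial nucleotide kinase) lie head to head on chromosome 2 and were nearly silent in UT, so these genes are given against a floor of 3 reads per library. RSAD2 had 0 reads in both UT libraries and at most 0.02 RPKM in Ni-E, but 0.11 and 0.12 RPKM in Ni-W and 0.20 and 0.23 RPKM in HCl3. It was at least 4.51-fold higher in Ni-W and at least 8.33-fold higher in HCl3 than in UT, with adjusted P values of 0.00318 and 0.000125. CMPK2 had 0 reads in all 4 UT and Ni-E libraries, and was at 0.37 and 0.42 RPKM in Ni-W and 0.15 and 0.17 RPKM in HCl3. It was at least 12.6-fold higher in Ni-W and at least 5.16-fold higher in HCl3 than in UT, with adjusted P values of 1.35e-05 and 0.00149. For this pair the order of the washed-out groups was opposite, although HCl3 against Ni-W did not pass for either gene (adjusted P values 0.385 for RSAD2 and 0.0832 for CMPK2). RSAD2 in Ni-W was not called without UT replicate 1, Ni-W replicate 1 or Ni-W replicate 2 (adjusted P values 0.0651, 0.122 and 0.143), and CMPK2 in HCl3 was not called without HCl3 replicate 2 (adjusted P value 0.124), or without HCl3 replicate 1 (no adjusted P value).

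Of the 7 further members, 5 were called higher in HCl3 and 3 in Ni-W, and 1 (IFI27) was called lower in Ni-W. The shares over all genes tested were 11.4%, 11.1% and 4.95%. IFI6, a mitochondrial and endoplasmic reticulum protein that limits apoptosis, was at 33.1 and 22.4 RPKM (UT), 26.9 and 40.8 (Ni-E), 41.0 and 34.3 (Ni-W) and 68.1 and 67.1 (HCl3). It rose in HCl3 by 1.23 ± 0.16 (log2 scale, adjusted P value 1.67e-13), and in Ni-W it was 0.40 ± 0.18 (adjusted P value 0.0707). About 19.3% of 50-base windows of IFI6 occur in other gene models, and no other gene listed for the libraries overlaps IFI6. Whether its counts are affected was not tested. IFI44, a microtubule-associated protein with antiproliferative activity, was at 0.52 and 0.53 RPKM (UT), 1.05 and 1.08 (Ni-E), 1.56 and 1.41 (Ni-W) and 2.98 and 2.98 (HCl3). It stepped up from UT through Ni-E and Ni-W to HCl3 without overlap of the groups, with 0.96 ± 0.47 (log2 scale, adjusted P value 0.184) in Ni-E, 1.47 ± 0.41 (adjusted P value 0.00194) in Ni-W and 2.45 ± 0.33 (adjusted P value 4.79e-12) in HCl3. In Ni-W it was not called without UT replicate 1, Ni-W replicate 1 or Ni-W replicate 2 (adjusted P values 0.0564, 0.222 and 0.119).

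XAF1, a pro-apoptotic partner of XIAP, was at 0.68 and 0.73 RPKM (UT), 0.60 and 0.86 (Ni-E), 1.99 and 2.20 (Ni-W) and 1.89 and 1.67 (HCl3). The Ni-W and HCl3 libraries were above all UT and Ni-E libraries, with 1.53 ± 0.26 (log2 scale, adjusted P value 5.51e-08) in Ni-W and 1.30 ± 0.26 (adjusted P value 7.2e-06) in HCl3, beside medians of neighbouring genes of -0.47 and -0.40. An antisense gene, PRAL, overlaps much of XAF1 (73.9% of windows match an antisense transcript), and reads of the pair cannot be told apart where counting ignores strand. EPSTI1 was at 1.08 and 0.84 RPKM (UT), 0.89 and 1.47 (Ni-E), 2.34 and 1.87 (Ni-W) and 2.74 and 2.83 (HCl3). It rose in both washed-out groups, by 1.10 ± 0.27 (log2 scale, adjusted P value 0.000336) and 1.48 ± 0.24 (adjusted P value 9.02e-09). XAF1 in HCl3 was not called without HCl3 replicate 1 (adjusted P value 0.0641), and EPSTI1 in Ni-W was not called without Ni-W replicate 1 (adjusted P value 0.188).

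IFI27, a mitochondrial interferon marker used in blood tests of viral infection, was low and fell in Ni-W. It was at 1.93 and 1.02 RPKM (UT), 1.05 and 2.59 (Ni-E), 0.27 and 0.15 (Ni-W) and 2.42 and 1.67 (HCl3). Only Ni-W was apart, with a log2 fold change of -3.06 ± 0.90 (adjusted P value 0.00348) against UT and -3.35 ± 0.88 (adjusted P value 0.000611) against Ni-E. It was not called against UT without UT replicate 1, Ni-W replicate 1 or Ni-W replicate 2 (adjusted P values 0.3, 0.0749 and 0.131), nor against Ni-E without Ni-E replicate 2 or Ni-W replicate 2 (adjusted P values 0.194 and 0.0507). IFI44L had 1 and 0 reads in the UT libraries and reached 0.19 and 0.08 RPKM in HCl3, which was called higher (adjusted P value 0.00148), and it was not called without HCl3 replicate 1 (no adjusted P value). IFI35 ranged from 23.5 to 38.9 RPKM and was not called in any comparison.

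Of the transcription factors, IRF9, the DNA-binding partner in ISGF3, rose in HCl3. It was at 5.03 and 5.10 RPKM (UT), 4.20 and 6.52 (Ni-E), 7.03 and 6.04 (Ni-W) and 10.7 and 10.8 (HCl3). The HCl3 libraries were above all others, with 1.03 ± 0.16 (log2 scale, adjusted P value 3.46e-09) in HCl3 and 0.34 ± 0.19 (adjusted P value 0.18) in Ni-W. Some 24.1% of 50-base windows of IRF9 also occur in other gene models, and no other gene listed for the libraries overlaps IRF9. Whether its counts are affected was not tested. STAT2, a subunit of ISGF3, ranged from 8.25 to 14.2 RPKM and was 0.28 ± 0.12 (log2 scale, adjusted P value 0.0623) in HCl3. IRF7, which amplifies the interferon response, was at 8.14 and 6.24 RPKM (UT), 7.25 and 10.7 (Ni-E), 5.62 and 4.52 (Ni-W) and 8.19 and 8.24 (HCl3). Ni-W was lowest, with -0.55 ± 0.20 (log2 scale, adjusted P value 0.0201) against UT (under 1.5-fold) and -0.83 ± 0.20 (adjusted P value 0.000193) against Ni-E, and HCl3 was at 0.11 ± 0.17 (adjusted P value 0.67) against UT. The call against Ni-E was lost without Ni-E replicate 2 or Ni-W replicate 2 (adjusted P values 0.0864 and 0.0582). With GC and length correction, IRF7 in Ni-W against Ni-E was -0.48 (log2 scale, adjusted P value 0.0309), below 1.5-fold. IRF1 ranged from 11.7 to 18.9 RPKM without a call, and 31.9% of its windows match antisense transcripts.

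HCl3 and Ni-W carry the same treatment text but differed in these genes. In the direct test of HCl3 against Ni-W, 17 members were called higher and 1 lower, where 3.18% and 1.72% of all 14605 genes were called, and the median log2 fold change was 0.38 (all genes, -0.001). Without HCl3 replicate 1 the count of higher members was 11. The 17 higher were OAS1, OAS2, OASL, MX1, MX2, IFIT1, IFIT2, IFITM1, ISG15, IRF7, IRF9, DDX58, SAMD9L, IFI6, IFI27, IFI44 and IFI44L. Of the members not called, IFIT3 at 0.55 ± 0.13 (adjusted P value 0.000367) and OAS3 at 0.23 ± 0.07 (adjusted P value 0.0137) passed on the P value but were below 1.5-fold on the log2 scale, and IFIH1 at 0.20 ± 0.15 (adjusted P value 0.408) and IFITM3 at 0.22 ± 0.10 (adjusted P value 0.131) did not pass.

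Against Ni-E, which had the same exposure without the time in nickel-free medium, HCl3 had 24 members called higher and none lower by DESeq2 or edgeR (3 lower at an unadjusted P value under 0.05), beside 10.6% and 6.95% of all genes. Ni-W had 13 called higher and 7 lower, beside 12.0% and 9.04% of all genes. The 7 lower were IFIT5, IFI27, IFITM1, ISG15, IRF7, DDX58 and USP18, and their count was 1 without Ni-W replicate 2 and 3 without Ni-E replicate 2. ISG15 in Ni-W against Ni-E was -0.60 ± 0.13 (log2 scale, adjusted P value 1.2e-05), and IFITM1 was -1.12 ± 0.30 (adjusted P value 0.000709). With GC and length correction ISG15 was -0.28 (log2 scale, adjusted P value 0.0296), and with the local median removed -0.38 (adjusted P value 0.0111), both below 1.5-fold and not called. ISG15 also fell below 1.5-fold without Ni-E replicate 1 or Ni-W replicate 2 (log2 fold changes -0.56 and -0.48), and IFITM1 was not called without Ni-E replicate 2 or Ni-W replicate 2 (adjusted P values 0.1 and 0.115).

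The pathway above the members was examined with lists of ligands, receptors and signalling genes. Of 22 interferon ligand genes, 3 had any read (IFNB1 at most 2 reads in a library, IFNL1 at most 1 and IFNE at most 17), and the others had 0 reads, which allows up to 3 reads per library. None was called in any comparison by DESeq2 or edgeR, and none had an unadjusted P value under 0.05, but only 1 was abundant enough to be tested. All 6 receptor genes were expressed, and none was called in any comparison by either tool, although between 2 and 3 of the 6 had an unadjusted P value under 0.05 in each comparison. IFNAR1, a chain of the type I receptor, was at 23.8 and 25.7 RPKM (UT), 18.1 and 22.1 (Ni-E), 25.5 and 25.9 (Ni-W) and 24.2 and 22.1 (HCl3). IFNGR2 was at 29.3 and 27.7 RPKM (UT), 36.9 and 37.9 (Ni-E), 36.3 and 39.5 (Ni-W) and 41.8 and 43.5 (HCl3). Every nickel library was above both UT libraries. The fitted fold changes against UT, 1.26 (Ni-E), 1.3 (Ni-W) and 1.44 (HCl3), were under 1.5.

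JAK2, a kinase of the interferon gamma receptor, fell in Ni-W, the log2 fold change being -0.78 ± 0.17 (adjusted P value 6.63e-05), beside a local median of -0.72. Among 10 tested genes of sensing and relay, 4 rose in Ni-W (DHX58, TLR3, TMEM173 and IKBKE), 3 in HCl3 (DHX58, TLR3 and TMEM173) and 1 in Ni-E (TLR3), where 11.1%, 11.4% and 3.84% of all genes tested were called higher. With 10 genes, 1 call in Ni-E is near that share. None was called lower against UT, beside 4.95% (Ni-W), 3.84% (HCl3) and 2.1% (Ni-E) of all genes, again near the share. At an unadjusted P value under 0.05, 3 were lower and 4 higher in Ni-W, 4 and 4 in HCl3, and 1 and 2 in Ni-E. IRF3 was at -0.44 ± 0.12 (log2 scale, adjusted P value 0.00176) in Ni-W and -0.35 ± 0.11 (adjusted P value 0.0081) in HCl3. The list median was 0.09 in Ni-W and 0.16 in HCl3. IKBKE in Ni-W was 0.65 ± 0.17, beside a local median of 0.45. TMEM173 (STING), the adaptor of cytosolic DNA sensing, was at 8.93 and 7.59 RPKM (UT), 10.6 and 12.8 (Ni-E), 19.6 and 16.1 (Ni-W) and 17.0 and 17.0 (HCl3), with 1.07 ± 0.15 (log2 scale, adjusted P value 5.35e-11) in Ni-W and 0.98 ± 0.13 (adjusted P value 9.09e-12) in HCl3. TLR3, the endosomal sensor of double-stranded RNA, was at 1.20 and 0.96 RPKM (UT), 2.55 and 3.30 (Ni-E), 2.38 and 2.22 (Ni-W) and 1.78 and 2.00 (HCl3), with its largest value of 1.38 ± 0.26 (log2 scale, adjusted P value 6.89e-06) in Ni-E.

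Of 7 negative regulators, SOCS1, the feedback inhibitor of JAK kinases, was higher in HCl3 by 1.66 ± 0.57 (log2 scale, adjusted P value 0.0137), at 0.37 and 0.34 RPKM (UT), 0.17 and 0.39 (Ni-E), 1.02 and 0.64 (Ni-W) and 1.40 and 0.92 (HCl3). PTPN2, a phosphatase that acts on JAK and STAT proteins, was at 38.5 and 43.2 RPKM (UT), 37.9 and 37.8 (Ni-E), 27.6 and 29.0 (Ni-W) and 19.7 and 21.4 (HCl3). It fell in both washed-out groups, with a log2 fold change of -0.62 ± 0.12 (adjusted P value 2.66e-06) in Ni-W and -1.09 ± 0.11 (adjusted P value 9.49e-20) in HCl3, beside local medians of -0.38 and -0.67.

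A further list of 49 interferon-responsive genes outside the 42 was followed in the same way. In HCl3, 10 were called higher and none lower by DESeq2 or edgeR (4 lower at an unadjusted P value under 0.05), in Ni-W 7 higher and 1 lower, and in Ni-E 2 higher and 1 lower. Of all genes tested, 11.4%, 11.1% and 3.84% were called higher in these groups and 3.84%, 4.95% and 2.1% lower. The higher counts in Ni-W and Ni-E, and the lower counts in all 3 groups, lie near the share over all genes. The median log2 fold change was 0.16 in HCl3, 0.17 in Ni-W and 0.02 in Ni-E. The 10 in HCl3 include the chemokines CXCL10, CXCL11 and CCL5, which attract T cells, and the dendritic-cell protein LAMP3. CXCL10 and CXCL11 rest on few reads, at most 32 and 15 in a library. Their log2 fold changes in HCl3 against UT were 2.71 ± 0.99 (adjusted P value 0.022) and 4.43 ± 1.82 (adjusted P value 0.0464). LAMP3 was called higher in both washed-out groups, at log2 fold changes of 3.04 ± 0.39 in Ni-W and 2.92 ± 0.39 in HCl3. CCL5 was at 0.37 and 0.11 RPKM (UT), 0.32 and 0.81 (Ni-E), 0.79 and 1.11 (Ni-W) and 1.93 and 2.17 (HCl3). It was higher in both washed-out groups, by 2.03 ± 0.71 (log2 scale, adjusted P value 0.0175) in Ni-W and 3.11 ± 0.55 (adjusted P value 2.74e-07) in HCl3. GBP4, beside GBP1 and GBP2 on chromosome 1, was at 0.08 and 0.04 RPKM (UT), 0.06 and 0.13 (Ni-E), 1.32 and 1.19 (Ni-W) and 0.63 and 0.49 (HCl3). Like GBP2 it was highest in Ni-W, with 4.30 ± 0.38 (log2 scale, adjusted P value 7.68e-27) against UT and -1.18 ± 0.22 (adjusted P value 3.25e-06) in HCl3 against Ni-W. CD274 (PD-L1) fell in Ni-W, the log2 fold change being -1.18 ± 0.20 (adjusted P value 1.22e-07), beside a local median of -0.76.

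The Ni-E libraries differed from each other in these genes mostly in one direction. Ni-E replicate 2 was above replicate 1 in 33 of 42 members, with a median difference of 0.33 on the log2 scale, where 44.4% of all expressed genes were higher in replicate 2 and the median was -0.023. A difference of at least 1.5-fold was seen in 10 members, all higher in replicate 2, where 3.9% of all expressed genes differed by this much in either direction. In UT replicate 2 was the higher library in 14 members, in Ni-W in 11 and in HCl3 in 24, beside 53.1%, 51.4% and 53.1% of all expressed genes. In UT and Ni-W most members were thus higher in replicate 1. A difference of at least 1.5-fold was seen in 6 members in UT, 3 in Ni-W and 1 in HCl3, each time with replicate 1 the higher, beside 3.59%, 1.29% and 0.658% of all expressed genes. Relative to the UT mean, the median member was at -0.02 in Ni-E replicate 1, 0.31 in Ni-E replicate 2, 0.44 and 0.32 for the Ni-W libraries, and 0.81 and 0.73 for those of HCl3. By this median Ni-E replicate 2 was at the level of Ni-W, and without it the median of Ni-E against UT was -0.04, while without Ni-E replicate 1 it was 0.32.

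The 7 members with no call in any of the 6 comparisons were IFI35, IFITM2, STAT2, IRF1, HERC5, HERC6 and PARP9. All 7 were detected in every library, from 2.57 RPKM (lowest HERC6 library) to 65.5 RPKM (highest IFITM2 library), and all were tested in every comparison.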

How the data were processed

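RNA-seq libraries of BEAS-2B cells (4 groups of 2) had been prepared with a TruSeq RNA kit. The authors aligned reads to hg19 with STAR (version 2.4 in the submitters' processing notes) and deposited, for each library, read counts per gene and RPKM values with 2 decimals; whether counting used strand was not given in the sources used here. Counts were tested with DESeq2 1.42.0, the authors' tool: 4 libraries in each pairwise fit, its median-of-ratios scaling, a Wald test (two-sided) and Benjamini-Hochberg adjustment over all genes tested. A gene was called at an adjusted P value below 0.05 and a fold change of at least 1.5. RPKM values, as deposited, are printed as levels and were not tested. The members and the pathway lists were chosen with earlier results of these data known, and support from the lists is descriptive.

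Members called in at least 1 of 6 comparisons whose normalized count averaged 50 or more are described in full; others are given by single values. Totals ranged from 26383920 to 45692298 reads per library; a gene with 0 reads was held against a floor of 3 reads per library, which covers counting error only. Alternatives were edgeR 4.0.16 (quasi-likelihood), TMM normalization, a mean count minimum of 10, all 8 libraries in 1 fit, no fold threshold, the replicate number as a block, GC and length correction, removal of the median of expressed genes within 5 Mb, and leaving out each library, where the lone library was assumed to vary like the other group. On simulated counts for HCl3 against UT (25411 genes, 200 changed), DESeq2 recovered 189 with 0 false calls. With a planted GC trend it recovered 51 (187 after correction, with 2 false calls), and with a raised chromosome it made 653 false calls (10 after removal of the local median). The planted changes all exceeded 1.5-fold and lay in genes averaging at least 50 counts, and the spread between libraries was assumed. Recovery of changes near 1.5-fold or in genes with fewer reads was therefore not tested. RefSeq promoters (GRCh38.p14) gave the motif counts; file coordinates are hg19. With 2 libraries a group an exact permutation test cannot give a two-sided P value below 0.333, so none was run. Python 3.11.15 and R 4.3.3 were used.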

Additional observations from a re-analysis of the deposited data

Results flagged for a closer look

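HCl3 and Ni-W have the same treatment text, and their responses against UT were set against each other by the direct test of HCl3 against Ni-W, in which the UT libraries cancel. It called 18 members, and differences are given on the log2 scale. In the OAS family the log2 difference of HCl3 over Ni-W was 1.98 for OASL, 1.75 for OAS2 and 1.01 for OAS1. It was 1.47 for MX2 and 1.22 for MX1, the antiviral GTPases. The RNA-binding IFIT2 and IFIT1 differed by 1.14 and 1.03. Among membrane and ubiquitin-like factors, IFITM1 differed by 2.38 and ISG15 by 0.85. The RNA sensor DDX58 differed by 1.16, beside a median of 0.40 for genes within 5 Mb. The transcription factors IRF9 and IRF7 differed by 0.70 and 0.67. The values were 0.83 for IFI6, 0.98 for IFI44 and 0.64 for SAMD9L. Larger values of 3.53 for IFI27 and 6.12 for IFI44L rest on low counts. The Ni-W libraries held 1 and 0 reads of IFI44L, so its fitted value is no bound. GBP2, at -1.67, was the only member called lower in HCl3. Of these calls, IFI27 was lost without HCl3 replicate 1 (adjusted P value 0.111), OAS1 without HCl3 replicate 1 (adjusted P value 0.245), IRF9 without HCl3 replicate 2 (adjusted P value 0.0736), SAMD9L without HCl3 replicate 1 (log2 fold change 0.58) and IFI44L without HCl3 replicate 1 (no adjusted P value). IFI44 was lost when any 1 of the 4 libraries was left out (adjusted P values 0.0504 to 0.224). IRF7 was lost without HCl3 replicate 1 or HCl3 replicate 2 (adjusted P values 0.0831 and 0.155), or without Ni-W replicate 2 (log2 fold change 0.54). With all libraries kept, IRF7 fell below 1.5-fold with GC and length correction (log2 fold change 0.44) or with the local median removed (0.57). IFI44 was not called with the replicate block (adjusted P value 0.0536). Experiment number and group cannot be told apart in the comparison of HCl3 with Ni-W.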

How the results depend on the processing

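Of 962 single-member results under another setting, 912 kept their direction and their side of the threshold, 48 no longer passed and 2 changed sign. With a library left out, 340 of 456 were kept, 116 no longer passed and 0 changed sign. Both changes of sign were DDX58 with the local chromosomal median removed: 0.01 in Ni-W against UT and 0.12 in Ni-W against Ni-E on the log2 scale, set by the low median of its neighbours.

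The number of members called higher in Ni-E against UT was 7 with all 8 libraries in 1 fit and 1 with the replicate block and GC correction. The number called lower in Ni-W against UT was 1 with the local median removed. In Ni-W against Ni-E, the replicate block with GC correction gave 8 higher and 4 lower, and removal of the local median gave 4 lower. Without the fold threshold, 2 members were lower in HCl3 than in Ni-E and 3 lower in HCl3 than in Ni-W; edgeR gave 2 lower in HCl3 than in Ni-W. The median of the members in HCl3 against UT was 0.86 with GC correction, 0.86 with the block added, and 0.88 with the local median removed; in HCl3 against Ni-W it was 0.45, 0.46 and 0.42. The cause of these shifts was not tested.

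With a library left out, members higher and lower ranged from 0 to 2 and 2 to 4 in Ni-E against UT, 7 to 14 and 0 to 2 in Ni-W against UT, 20 to 25 and 0 to 0 in HCl3 against UT, 9 to 14 and 1 to 7 in Ni-W against Ni-E, 17 to 29 and 0 to 0 in HCl3 against Ni-E, and 11 to 17 and 1 to 1 in HCl3 against Ni-W. In the same order the median ranged from -0.04 to 0.32, 0.32 to 0.47, 0.73 to 0.85, 0.20 to 0.49, 0.62 to 1.04 and 0.35 to 0.61.

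The replicate numbers are only shared between groups: the correlation of same-numbered deviations was between -0.165 and 0.193. With the replicate block, 2, 15, 25, 9, 23 and 16 members were higher and 4, 3, 0, 7, 0 and 1 lower in that order of comparisons. With the numbers crossed, a pairing added after the data were seen, 2 were higher and 4 lower in Ni-E against UT, 25 and 0 in HCl3 against UT, and 13 and 7 in Ni-W against Ni-E.

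With 2 libraries a group, changes near 1.5-fold and genes with few reads are the least certain, and 4 called members averaged under 50 normalized counts.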
